A study of Mus musculus with 12 samples.

Results

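The mitosis and chromosome segregation genes described here were 50 genes whose products condense chromosomes, build the spindle, attach chromosomes to it and divide the cell. They were chosen by name and not by a cutoff on their values, but with earlier results of these data known. Every probe carrying one of the 50 gene symbols was taken, which gave 100 of the 56605 non-control probes on the array. The cells were C2C12, an established line of mouse C3H muscle myoblasts that grows as single cells and forms myotubes once confluent cultures are moved to low-serum medium. They had been transfected with a control siRNA (siControl) or with an siRNA against the transcription repressor Bach1 (siBach1). RNA was taken before differentiation (day 0) or on day 2 of it, with 3 arrays in each of the 4 conditions. Fetal bovine serum was named for all samples and 2% horse serum only for those of day 2. Apart from the siRNAs and sera, no allele or agent was named. Comparisons of day 2 with day 0 therefore cannot tell the change of serum apart from the day. Each array held the RNA of a whole culture in 1 colour. All silenced samples carried the same siRNA, so that effects of that sequence other than the loss of Bach1 cannot be told apart from it, and 1 cell line was used.

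Cells that divide make most mitotic proteins anew in each cycle, and their genes are switched on together in late S and G2 phase. Transcription factors such as B-Myb with the MuvB complex, and FoxM1, act at their promoters in cycling cells, while the DREAM complex of MuvB with E2F4 and p130 holds many of the same promoters silent in resting cells. Myoblasts leave the cell cycle for good when they fuse and differentiate, and the loss of mitotic transcripts is among the best known signs of that exit.

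The labels held up against the targeted gene. Bach1 was 3.42-fold lower in siBach1 than in siControl cells at day 0 and 3.91-fold lower at day 2 (limma, adjusted p = 1.2e-05 and 1.4e-05), and Hmox1, the haem oxygenase gene that Bach1 represses, was 9.86-fold and 8.72-fold higher. Probes well above background made up 47.6% to 58.9% of all probes across the 12 arrays, and no spot was saturated. All 8 markers of differentiating muscle, Myog and Ckm among them, were higher at day 2 than at day 0 in siControl cells, with a median difference of 4.78 on the log2 scale. The myoblast markers Myod1 and Des stood well above background on each of the 12 arrays, while Myf5, also a myoblast marker, did so on 2 of the 3 arrays of each condition, with replicate 3 the lowest each time, and did not enter the test. Of the markers of other cell types Adipoq, Cdh5, Tek and Epcam did so on 0 of the 12. Ptprc, Cd3e, Cd68, Lep and Sp7 each had a probe that did so on all 12. Pecam1 and a probe of Plin1 did so on 2 or 3 of the 3 arrays of each condition. Silencing went with a difference of 1.90 in Bglap at day 2 (adjusted p = 0.0057) and of 1.70 in Krt8 and -0.48 in Cd68 at day 0 (adjusted p = 0.026 and 0.018), all on the log2 scale. Cdh1 also passed the test at day 0 (adjusted p = 0.0097), but it was well above background on 0 of the day 0 arrays, so no difference is given for it. Their part in the differences between mitotic genes was not tested. Replicates 1 and 2 were hybridized on the same slide and replicate 3 on another, and each condition kept its own column on the slide, so that slide column and condition cannot be told apart. Nothing in the labels says whether replicates came from separate cultures, and the p-values measure only the spread between these samples.

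A level is given here as the log2 of a probe's processed signal minus the 75th percentile of its array, so that 0 is the brightness of the 75th percentile spot and 1 unit is a factor of 2. Of the 100 member probes, 91 entered the test, which required a signal well above background on every array of 1 condition or more, and these 91 covered all 50 genes. The other 9 belonged to Cdca8, Ect2, Kif23, Prc1, Foxm1, Bub1, Ttk, Kif15 and Kif4 and were well above background on at most 1 of the 12 arrays. Where a gene is given by 1 value, it is that of its brightest tested probe, and all 50 of these were well above background on all 12 arrays.

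The mitotic genes fell together as the control cells differentiated. In siControl cells 89 of the 91 tested probes were lower at day 2 than at day 0 at an adjusted p under 0.05 (limma with Benjamini-Hochberg adjustment), where 28.7% of all tested probes were, and 88 of them by at least 2-fold, where 9.46% of all tested probes were. None passed as higher, where 24.6% of all tested probes did. All 50 genes passed. Their median change was -2.07 on the log2 scale, a 4.19-fold fall, against a median of 0.01 over all 15642 genes tested, and it ran from -2.59 for Espl1 to -1.46 for Smc4. The day 0 and day 2 arrays of the 89 probes did not overlap, whereas 32.8% of all tested probes were lower without overlap. In RNA from whole cultures, fewer cycling cells and less RNA per cell cannot be told apart.

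**Figure D1:**
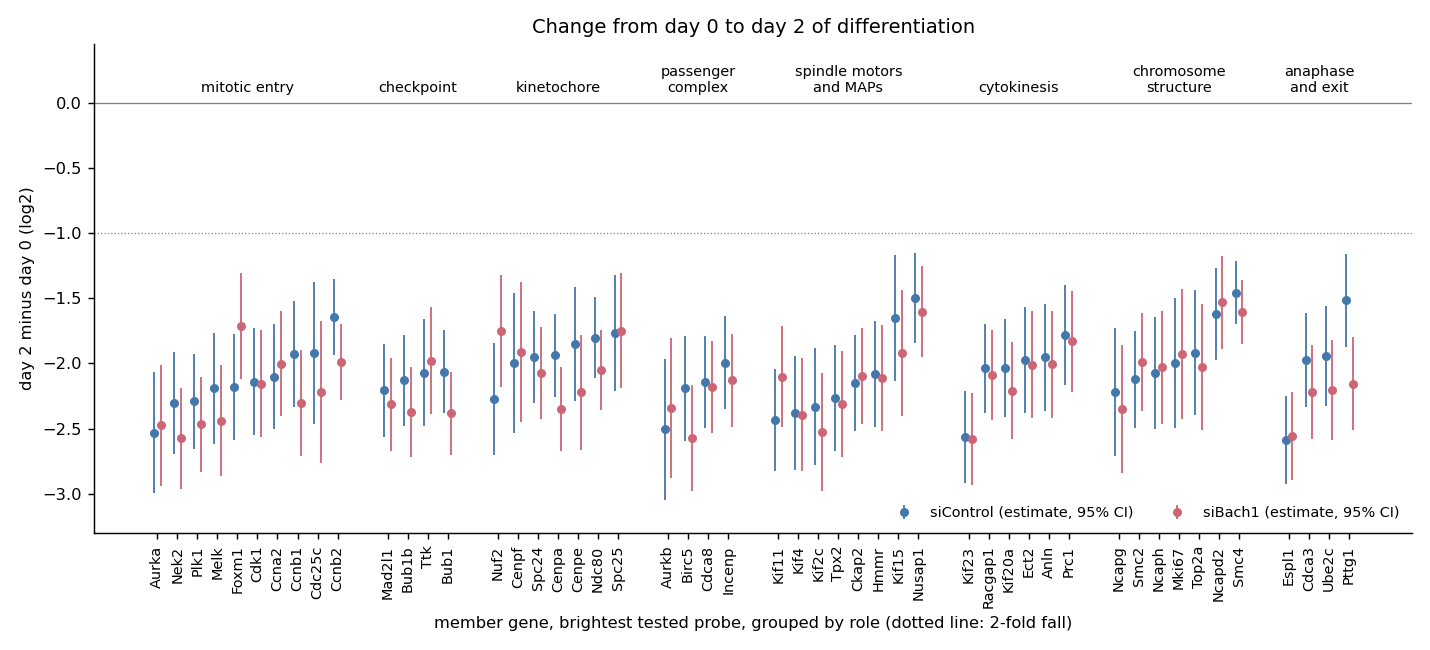
Change from day 0 to day 2 for the brightest probe of each of the 50 genes, grouped by role, on the log2 scale (points, limma estimates; bars, 95% confidence intervals; blue, siControl; red, siBach1; MAPs, microtubule-associated proteins). Every estimate lies between -1.46 and -2.59, below the dotted line of a 2-fold fall.

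Among the 10 genes of mitotic entry and its regulation the median fall was -2.16 on the log2 scale. Aurka, a kinase of centrosome maturation, fell furthest in this group. Its level was 5.64, 5.60 and 5.71 on the siControl day 0 arrays and 3.17, 2.64 and 3.55 on the day 2 arrays, a 5.78-fold fall (log2 change -2.53, SE 0.21, adjusted p = 3.7e-06). Ccnb2, a B-type cyclin that activates Cdk1, fell least, from levels of 5.35, 5.22 and 5.26 to 3.69, 3.39 and 3.81 (3.13-fold, log2 change -1.65, SE 0.13, adjusted p = 2.9e-06). Between them lay Cdk1 itself, the kinase that drives mitosis, at -2.14, and its partner cyclins Ccna2 at -2.10 and Ccnb1 at -1.93. The kinases Nek2, Plk1 and Melk, the phosphatase Cdc25c and the transcription factor Foxm1 changed by -2.30, -2.29, -2.19, -1.92 and -2.18.

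The 4 spindle checkpoint genes, which hold back anaphase until all chromosomes are attached, fell by nearly the same amount. Mad2l1 went from levels of 4.34, 4.33 and 4.21 to 2.27, 1.65 and 2.34 (4.62-fold, log2 change -2.21, SE 0.16, adjusted p = 1.7e-06). Bub1 went from levels of 2.74, 2.79 and 2.73 to 0.81, 0.31 and 0.95 (4.18-fold, log2 change -2.06, SE 0.14, adjusted p = 1.2e-06). The kinases Bub1b and Ttk lay between them, and replicate 2 was the lowest day 2 array for both genes shown.

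At the kinetochore, which links the centromere to microtubules, Nuf2 fell most and Spc25 least, although both belong to the 4-subunit Ndc80 complex. Nuf2 had levels of 3.46, 3.39 and 3.60 at day 0 and 1.29, 0.78 and 1.55 at day 2 (4.83-fold, log2 change -2.27, SE 0.19, adjusted p = 4.6e-06). Spc25 had levels of 5.16, 5.18 and 5.27 at day 0 and 3.66, 2.94 and 3.70 at day 2 (3.41-fold, log2 change -1.77, SE 0.20, adjusted p = 3.2e-05). The other subunits, Ndc80 and Spc24, changed by -1.80 and -1.95. Cenpa, the histone H3 variant that marks centromeres, changed by -1.94, the kinesin Cenpe by -1.85 and Cenpf by -2.0.

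The chromosomal passenger complex corrects faulty attachments and later moves to the cleavage site. Its kinase Aurkb dropped from levels of 2.72, 2.89 and 2.73 to 0.25, -0.25 and 0.82 (5.68-fold, log2 change -2.51, SE 0.24, adjusted p = 1.1e-05). Its scaffold Incenp dropped from levels of 5.89, 5.81 and 5.89 to 3.97, 3.46 and 4.17 (3.99-fold, log2 change -2.0, SE 0.16, adjusted p = 3.1e-06). The other 2 subunits, Birc5 (survivin) and Cdca8 (borealin), changed by -2.19 and -2.14.

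Among the 8 spindle motors and microtubule-associated proteins the range was wider. Kif11, the kinesin that pushes spindle poles apart, fell from levels of 1.24, 1.23 and 1.19 to -0.75, -1.36 and -1.54 (5.41-fold, log2 change -2.44, SE 0.18, adjusted p = 1.6e-06). Nusap1, which bundles microtubules, fell from levels of 2.77, 2.77 and 2.67 to 1.26, 0.92 and 1.53 (2.83-fold, log2 change -1.50, SE 0.16, adjusted p = 1.8e-05). Kif11 was the only one of the 50 genes for which replicate 2 was not the lowest siControl day 2 array. The chromokinesin Kif4, the microtubule depolymerase Kif2c and the Aurora A activator Tpx2 changed by -2.38, -2.33 and -2.26, and Ckap2, Hmmr and Kif15 by -2.15, -2.08 and -1.65.

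Among the 6 genes of the central spindle and cytokinesis, Kif23, the kinesin of centralspindlin, fell furthest. Its levels were 2.39, 2.45 and 2.30 at day 0 and -0.06, -0.56 and 0.08 at day 2 (5.91-fold, log2 change -2.56, SE 0.16, adjusted p = 5.9e-07). Prc1, which cross-links the midzone microtubules, had levels of 4.93, 4.86 and 4.92 and then 3.22, 2.66 and 3.48 (3.44-fold, log2 change -1.78, SE 0.17, adjusted p = 1.1e-05). Racgap1, the partner of Kif23, changed by -2.04, and Kif20a, Anln and the RhoA activator Ect2 by -2.03, -1.95 and -1.97.

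In the chromosome structure group, Ncapg, a subunit of condensin I, went from levels of 4.21, 4.30 and 4.43 to 2.17, 1.59 and 2.52 (4.65-fold, log2 change -2.22, SE 0.22, adjusted p = 1.3e-05). Smc4, an ATPase shared by both condensins, showed the smallest fall of the 50 genes, from levels of 4.63, 4.65 and 4.57 to 3.18, 2.93 and 3.37 (2.75-fold, log2 change -1.46, SE 0.11, adjusted p = 2.0e-06). Its partner ATPase Smc2 changed by -2.12. The condensin I subunits Ncaph and Ncapd2 changed by -2.07 and -1.62, topoisomerase Top2a by -1.92, and Mki67, the gene of the proliferation antigen Ki-67, by -2.0.

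The last group held the protease, the inhibitor and the ubiquitin enzyme of anaphase. Espl1, or separase, which cuts cohesin, had the largest fall of the 50 genes. Its levels were 3.73, 3.73 and 3.58 at day 0 and 1.34, 0.67 and 1.25 at day 2 (6.02-fold, log2 change -2.59, SE 0.15, adjusted p = 4.2e-07). Pttg1, or securin, which inhibits separase, was among those that fell least, from levels of 6.36, 6.55 and 6.07 to 5.09, 4.47 and 4.87 (2.86-fold, log2 change -1.52, SE 0.16, adjusted p = 2.1e-05). Ube2c, the ubiquitin-conjugating enzyme of the anaphase-promoting complex, and Cdca3 changed by -1.94 and -1.97.

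Silenced cells showed a fall of much the same size. In siBach1 cells 90 of the 91 probes were lower at day 2 than at day 0, where 32.3% of all tested probes were, and all 50 genes passed. The median change was -2.14 on the log2 scale (4.41-fold) and ran from -2.58 for Kif23 to -1.53 for Ncapd2, against a median of -0.06 over all genes.

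Probes of the same gene mostly moved alike. Of the 27 genes with at least 2 tested probes, 26 had all their probes on the same side of 0 in the siControl day comparison, with a median spread between probes of 0.29 on the log2 scale. The exception was Kif23, whose dim probe A_55_P2732276 had levels of -3.38, -3.22 and -3.20 at day 0 and -3.10, -2.80 and -2.62 at day 2 in siControl cells. These groups did not overlap and the probe was higher at day 2, by 0.43 (SE 0.18, adjusted p = 0.062), whereas the brightest Kif23 probe fell 5.91-fold. The dim Prc1 probe A_55_P2612903 changed by -0.42 in siControl cells without passing (SE 0.24, adjusted p = 0.18) and by -0.77 in siBach1 cells (adjusted p = 0.019).

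The promoters of the members were read next, because genes that move together invite a look at the sequence they share. Windows from 250 bases before to 50 bases after the transcript start came from RefSeq (GRCm38.p6) and covered 41 of the 50 genes in 43 windows; Aurkb, Ccna2, Cdc25c, Foxm1, Incenp, Kif20a, Smc4, Spc24 and Tpx2 had no entry. The cell cycle genes homology region (CHR), through which MuvB complexes contact DNA, was searched as TTTGAA or TTCGAA, and the CCAAT box, which NF-Y binds, as CCAAT, each on both strands where neither motif contains the other. Stretches from 130 bases before to 50 after the start are printed below for the 6 members with a CHR match that fell furthest in siControl cells, and for Pttg1, which had neither motif and which the silencing comparisons return to. Capitals mark the matches, which read TTCAAA or ATTGG where the motif lies on the other strand, and each sequence runs 5′ to 3′ along the strand of its gene.
Espl1 (chr15:102296163-102296342, + strand): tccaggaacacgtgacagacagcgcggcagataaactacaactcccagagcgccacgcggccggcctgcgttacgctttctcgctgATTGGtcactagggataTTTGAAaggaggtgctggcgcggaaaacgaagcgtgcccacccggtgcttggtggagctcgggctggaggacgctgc
Kif23 (chr9:61946750-61946929, - strand): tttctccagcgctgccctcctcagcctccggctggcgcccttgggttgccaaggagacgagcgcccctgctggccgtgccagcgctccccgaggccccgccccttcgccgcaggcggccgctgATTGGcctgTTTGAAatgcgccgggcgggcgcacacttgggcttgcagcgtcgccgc
Aurka (chr2:172370521-172370700, - strand): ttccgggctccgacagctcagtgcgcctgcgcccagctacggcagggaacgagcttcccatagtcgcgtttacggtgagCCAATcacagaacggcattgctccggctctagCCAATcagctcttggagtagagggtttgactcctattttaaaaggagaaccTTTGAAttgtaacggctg
Kif11 (chr19:37376252-37376431, + strand): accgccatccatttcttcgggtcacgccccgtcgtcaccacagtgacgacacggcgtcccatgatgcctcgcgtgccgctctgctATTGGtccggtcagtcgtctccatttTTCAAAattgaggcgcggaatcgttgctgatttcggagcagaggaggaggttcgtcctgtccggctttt
Kif4 (chrX:100625935-100626114, + strand): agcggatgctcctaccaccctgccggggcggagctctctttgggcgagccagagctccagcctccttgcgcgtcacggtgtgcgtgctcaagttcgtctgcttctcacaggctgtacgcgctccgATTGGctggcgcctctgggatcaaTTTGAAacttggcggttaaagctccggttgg
Kif2c (chr4:117178723-117178902, - strand): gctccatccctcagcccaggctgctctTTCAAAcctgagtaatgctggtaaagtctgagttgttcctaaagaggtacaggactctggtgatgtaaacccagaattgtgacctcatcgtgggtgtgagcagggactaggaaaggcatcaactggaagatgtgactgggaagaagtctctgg
Pttg1 (chr11:43425932-43426111, - strand): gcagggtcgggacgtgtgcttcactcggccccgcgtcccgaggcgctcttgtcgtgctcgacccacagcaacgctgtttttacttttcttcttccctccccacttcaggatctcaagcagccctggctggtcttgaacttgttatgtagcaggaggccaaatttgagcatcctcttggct

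A CHR match was found in 31 of the 41 genes (75.6%), compared with 21.7% of the 27025 genes with a RefSeq promoter of the same length. A CCAAT match was found in 30 of them (73.2%, against 41.1%), and both motifs in 27 (65.9%, against 8.61%). In Espl1 the CHR began 27 bases before the start with a CCAAT box ahead of it at -44, and in Kif23 it began 3 bases after the start with the CCAAT box at -7. Kif2c differed, with its CHR at -103 and no CCAAT box. A CHR match that began within 50 bases of the start, a limit set after the positions had been seen, was present in 27 of the 41 genes (65.9%) and in 6.12% of all genes. The share within that limit was 40.9% among 66 further mitotic genes and 5.26% among 38 DNA replication genes, whose CCAAT shares were 63.6% and 63.2%. Members with and without the CHR letters did not separate by the size of their fall, which had a median of -2.06 for the 31 with a match and -2.13 for the 10 without. Birc5, Mad2l1, Melk, Ncaph, Nuf2, Nusap1 and Pttg1 had neither motif in the window, and their falls ran from -2.27 to -1.50. A match is a run of letters and not a site shown to be bound.

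**Figure D2:**
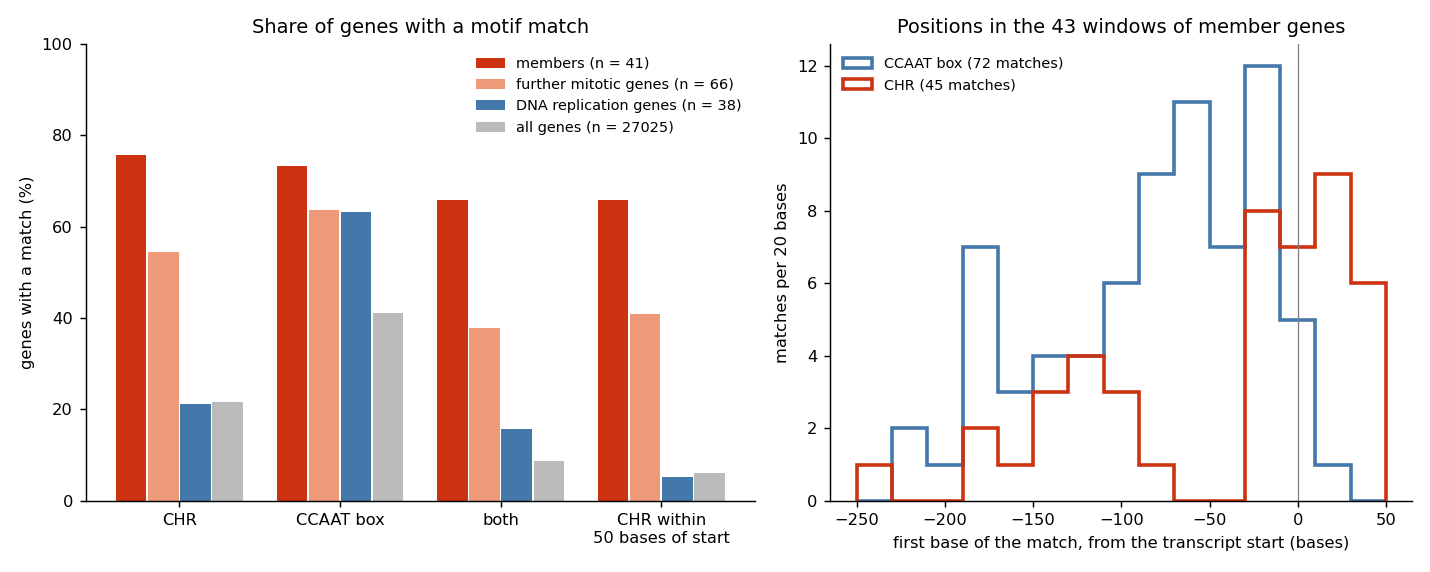
Left, share of genes (%) whose RefSeq promoter window holds a CHR match, a CCAAT match, both, or a CHR match beginning within 50 bases of the start, for members, further mitotic genes, DNA replication genes and all genes. Right, number of matches per 20 bases along the 43 windows of member genes (some genes have 2 overlapping windows), where CHR matches are most frequent around the start and CCAAT matches lie mostly ahead of it.

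Before differentiation, few members passed the test between siBach1 and siControl cells, while the estimates of all 50 lay slightly below 0. At day 0, 7 of the 91 probes were lower in siBach1 than in siControl cells at an adjusted p under 0.05 and 0 were higher (limma), where 8.32% of all tested probes were lower and 8.8% higher. That share of the members, 7.69%, was close to the background in this fit, but the count depended on how the spread was estimated. With only the day 0 arrays in the fit, 21 member probes were lower, where 6.96% of all tested probes were. A t-test with the same adjustment gave 20, where 5.7% of all tested probes were lower. By an unadjusted p under 0.05, 24 member probes were lower and 0 higher, against 12.9% and 18.2% of all tested probes. The estimate was below 0 for all 50 genes and for 90 of the 91 probes, next to 37.7% of all tested probes. The median of the 50 genes was -0.26 on the log2 scale (1.20-fold lower), while the median over all genes was 0.08. In 57 of the 91 probes all 3 siBach1 arrays lay below all 3 siControl arrays, where 15.4% of all tested probes did so. With 3 arrays against 3, an exact permutation test of a single probe cannot give a two-sided p below 0.1. With the replicate number as a block the number of lower member probes was 11, and 11.3% of all tested probes were lower.

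Nuf2 showed the largest of these differences. The level of its probe A_51_P513682 was 3.46, 3.39 and 3.60 in siControl cells and 2.61, 2.42 and 2.25 in siBach1 cells at day 0, a 2.08-fold difference and the only passing one of at least 2-fold, a size that 1.98% of all tested probes reached (log2 difference -1.05, SE 0.19, adjusted p = 0.0046). The groups were well apart. The other Nuf2 probe, A_55_P2113964, gave a log2 difference of -0.29 (adjusted p = 0.34), with levels of 1.80, 1.60 and 1.84 against 1.44, 1.34 and 1.58 that did not overlap either.

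Foxm1 is both a member and a transcription factor that activates mitotic genes. Its probe A_55_P2749790 had levels of 3.84, 3.76 and 3.95 in siControl cells and 2.89, 2.98 and 3.0 in siBach1 cells at day 0, a 1.86-fold difference (log2 difference -0.90, SE 0.18, adjusted p = 0.0080). The dimmer probe A_55_P2163428 had levels of -0.46, -0.44 and 0.12 against -0.72, -0.64 and -0.49, a log2 difference of -0.35 (adjusted p = 0.38). Neither pair of groups overlapped.

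Ccna2, or cyclin A2, which acts in S phase and at entry to mitosis, was the only gene of which every tested probe passed at day 0. Probe A_55_P2929773 read 4.28, 4.21 and 4.25 in siControl cells and 3.45, 3.36 and 3.27 in siBach1 cells (1.85-fold, log2 difference -0.89, SE 0.16, adjusted p = 0.0040). Probe A_51_P481920 read 4.75, 4.83 and 4.85 against 4.11, 4.02 and 4.04 (1.69-fold, log2 difference -0.76, SE 0.18, adjusted p = 0.017). The 2 groups lay apart on both probes, and the replicates of each were close together.

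The remaining 3 were Ttk, Ncapd2 and Ect2. The Ttk probe A_52_P110534 had levels of -0.86, -0.53 and -0.67 in siControl cells and -1.31, -1.29 and -1.68 in siBach1 cells (1.67-fold, log2 difference -0.74, SE 0.17, adjusted p = 0.013), and its other 2 tested probes differed by -0.62 and -0.51 without passing. The Ncapd2 probe A_51_P202074 had levels of 4.70, 4.71 and 4.85 against 4.27, 3.98 and 4.21 (1.52-fold, log2 difference -0.61, SE 0.16, adjusted p = 0.027), and its other probe differed by -0.42 with overlapping groups (adjusted p = 0.22). The Ect2 probe A_55_P2603307 had levels of 0.82, 1.01 and 0.75 against 0.13, 0.22 and 0.55 (1.47-fold, log2 difference -0.56, SE 0.14, adjusted p = 0.024). The brightest Ect2 probe, A_55_P1976127, differed by -0.36 without passing (adjusted p = 0.22). The groups did not overlap on any of the 3 probes that passed. The probes of Nuf2, Foxm1 and Ccna2 with the smallest adjusted p of their genes stayed under 0.05 in all 12 fits that left out 1 array, with highest values of 0.020, 0.030 and 0.018. The Ttk, Ncapd2 and Ect2 probes and Ccna2 probe A_51_P481920 rose above it in 1, 5, 4 and 2 of those fits.

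By role, the day 0 differences were largest in the chromosome structure group, whose 7 genes had a median of -0.43 on the log2 scale, and smallest among the 4 checkpoint genes, with a median of -0.12. On their brightest probes Bub1, Cenpe, Ccnb1, Smc4 and Racgap1 stood nearest to 0, at -0.07 each. Other probes of Racgap1, Smc4 and Ccnb1 reached -0.48, -0.41 and -0.20. Adjusted p for most members exceeded 0.05, and this does not show that their levels were alike: the 95% interval of Cenpf, for example, ran from -0.82 to 0.26.

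**Figure D3:**
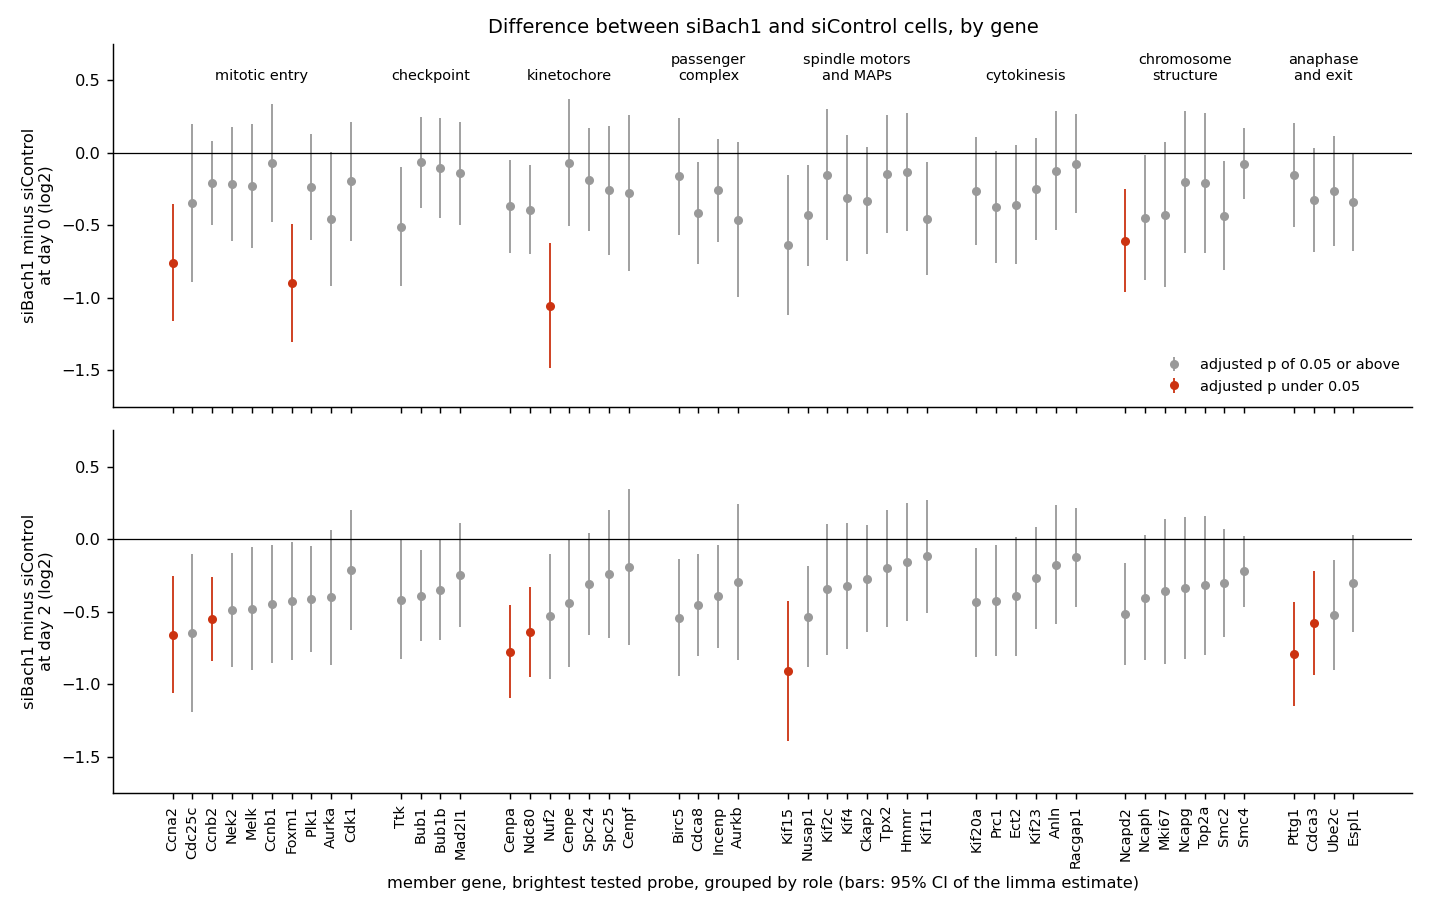
Difference between siBach1 and siControl cells at day 0 (upper panel) and day 2 (lower panel) for the brightest probe of each of the 50 genes, on the log2 scale, grouped by role (points, limma estimates; bars, 95% confidence intervals; red, adjusted p under 0.05). All 100 estimates are below 0, and 4 genes pass at day 0 and 7 at day 2, where 9.85% and 7.4% of all genes tested were lower.

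After 2 days of differentiation the members were again below the control level. At day 2, 11 of the 91 probes, of 10 genes, were lower in siBach1 than in siControl cells and 0 were higher, where 6.26% of all tested probes were lower and 5.75% higher. By an unadjusted p under 0.05, 46 were lower and 0 higher, against 14.6% and 12.7%. All 50 genes and 90 of the 91 probes were again below 0, next to 51.9% of all tested probes. The median of the 50 genes was -0.40 (1.32-fold lower) against -0.03 over all genes. In 16 of the 91 probes the groups did not overlap, a share of 17.6% next to 17.1% of all tested probes. With the replicate number as a block, 23 member probes were lower, where 11.6% of all tested probes were. Ccna2 and Ttk were the 2 genes with a passing probe at both days. The 2 comparisons have no array in common, but share the 1 estimate of the spread.

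Both probes of Pttg1 passed at day 2, and the dimmer had the largest difference of the 91. Probe A_55_P2110738 had levels of -1.95, -2.33 and -1.85 in siControl cells and -3.23, -3.26 and -2.96 in siBach1 cells, a 2.15-fold difference and again the only passing one of at least 2-fold, where 0.651% of all tested probes were (log2 difference -1.11, SE 0.13, adjusted p = 0.00094). The brighter probe A_51_P371190 had levels of 5.09, 4.47 and 4.87 against 3.95, 4.08 and 4.02 (1.73-fold, log2 difference -0.79, SE 0.16, adjusted p = 0.012). The groups were apart on both probes at day 2. At day 0 they overlapped on both, with levels of -0.48, -0.59 and -0.56 against -0.65, -0.64 and -0.44 on the first probe and 6.36, 6.55 and 6.07 against 6.27, 6.18 and 6.08 on the second.

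The centromere and kinetochore gave 2 of the genes that passed. Cenpa had levels of 2.11, 1.71 and 2.25 in siControl cells and 1.03, 1.23 and 1.48 in siBach1 cells at day 2 (1.71-fold, log2 difference -0.78, SE 0.14, adjusted p = 0.0079). Ndc80 had levels of 0.34, -0.12 and 0.36 against -0.56, -0.48 and -0.30 (1.56-fold, log2 difference -0.64, SE 0.14, adjusted p = 0.016). Both pairs of groups were separate. Nuf2, which binds Ndc80 directly and had led the day 0 list, differed by -0.53 at day 2 (SE 0.19, adjusted p = 0.11), with overlapping arrays.

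Among the spindle genes, Kif15, a kinesin that helps keep the spindle bipolar, had levels of -1.65, -2.27 and -2.09 against -2.89, -2.79 and -3.07 on its brightest probe (1.88-fold, log2 difference -0.91, SE 0.22, adjusted p = 0.024). Its 3 other tested probes differed by -0.45, -0.06 and -0.03 without passing. Hmmr had levels of 0.52, -0.20 and 0.41 against -0.63, -0.38 and -0.51 on probe A_55_P2738132 (1.68-fold, log2 difference -0.75, SE 0.17, adjusted p = 0.019), whereas its other probes differed by -0.32 and -0.16. For both genes the probe that passed showed groups that did not overlap, and other probes of the gene showed overlapping groups.

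The other genes that passed at day 2 were Birc5, Ccna2, Ttk, Ccnb2 and Cdca3. Birc5 had levels of 1.90, 1.19 and 1.83 against 0.85, 1.12 and 0.95 on probe A_55_P1983768 (1.59-fold, log2 difference -0.67, SE 0.16, adjusted p = 0.027). Its brightest probe, A_51_P230103, had levels of 4.98, 4.23 and 5.00 against 4.08, 4.13 and 4.37, which overlapped, and did not pass (log2 difference -0.54, adjusted p = 0.082). Ccnb2 had levels of 3.69, 3.39 and 3.81 against 3.02, 2.91 and 3.31 (1.46-fold, log2 difference -0.55, SE 0.13, adjusted p = 0.023). On the probes that passed for both genes, the siControl replicate 2 array lay nearest to the silenced arrays.
Cdca3 had levels of 2.29, 1.72 and 2.44 against 1.45, 1.56 and 1.72 (1.49-fold, log2 difference -0.58, SE 0.16, adjusted p = 0.045), in which the lowest siControl array and the highest siBach1 array nearly met. Ttk probe A_52_P110534 had levels of -2.91, -3.37 and -2.72 against -3.67, -3.60 and -3.56 (1.53-fold, log2 difference -0.62, SE 0.17, adjusted p = 0.041). Ccna2 probe A_51_P481920 had levels of 2.78, 2.30 and 3.05 against 1.95, 1.85 and 2.36 (1.58-fold, log2 difference -0.66, SE 0.18, adjusted p = 0.041). Its groups overlapped, unlike those of the passing probes of Birc5, Ccnb2, Cdca3 and Ttk. The other tested probes of Ttk differed by -0.55 and -0.42 and that of Ccna2 by -0.44, with overlapping groups and without passing.

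**Figure D4:**
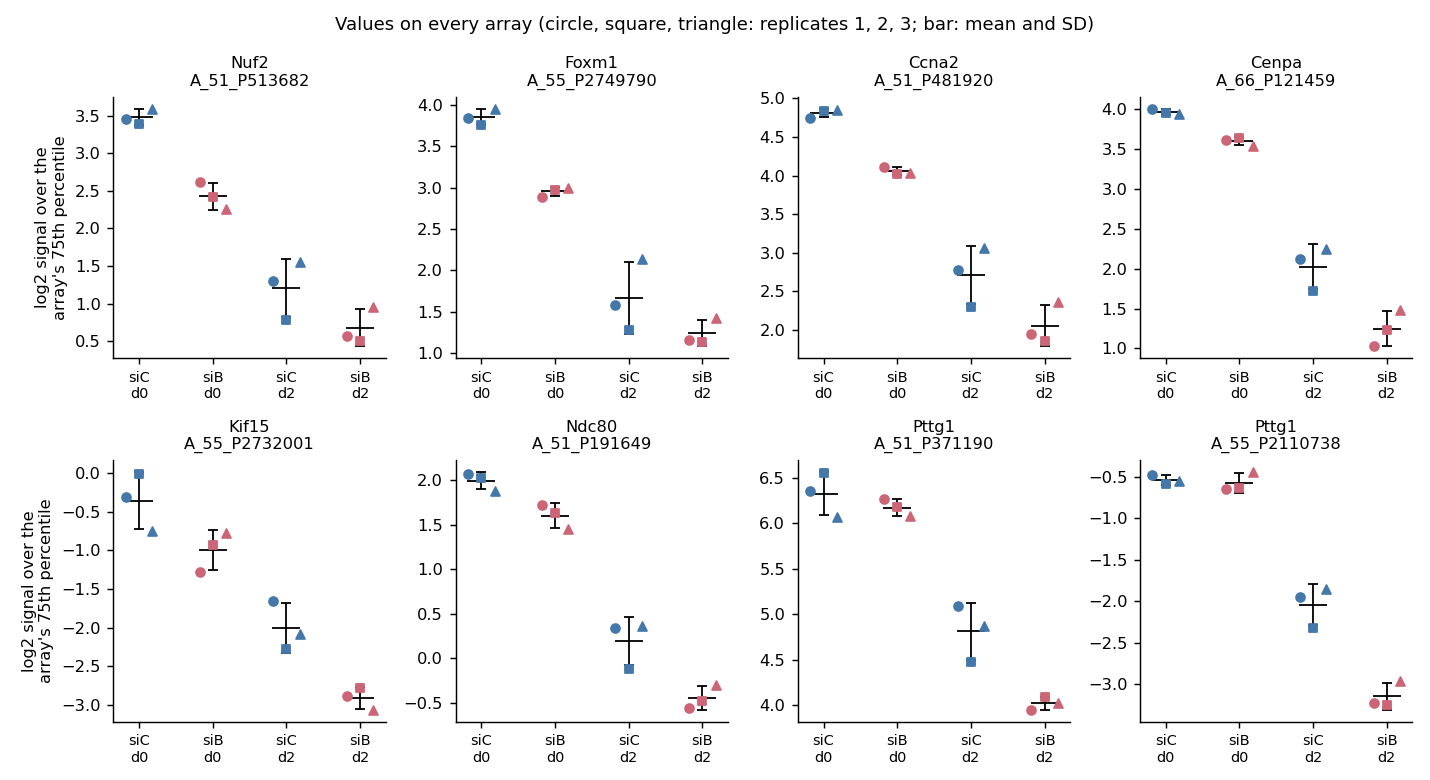
Levels (log2 of the signal over the array's 75th percentile) on every array for 8 probes of 7 genes that passed in a silencing comparison (siC, siControl; siB, siBach1; d0 and d2, day 0 and day 2; circle, square and triangle, replicates 1, 2 and 3; bar, mean and SD of 3 arrays). Nuf2, Foxm1 and Ccna2 are separated at day 0, both Pttg1 probes are separated only at day 2, and replicate 2 is the lowest siControl day 2 array in every panel.

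The members moved up and down together from array to array at day 2, and the day 2 counts depended on which arrays were used. Relative to the siControl day 0 means, the median of the 50 genes was -1.95, -2.50 and -1.73 on the siControl day 2 arrays 1, 2 and 3, and -2.60, -2.50 and -2.25 on the siBach1 day 2 arrays. On the day 0 arrays it was -0.01, -0.01 and 0.01 in siControl cells and -0.27, -0.32 and -0.34 in siBach1 cells. Replicate 2 was the lowest of the 3 siControl day 2 arrays for 49 of the 50 genes, and at the median it lay level with replicate 2 of the silenced cells. Replicate 3 was the highest for 46 genes in siControl and for 47 in siBach1 cells at day 2. At day 0 no array was lowest for more than 24 of the 50 genes.

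**Figure D5:**
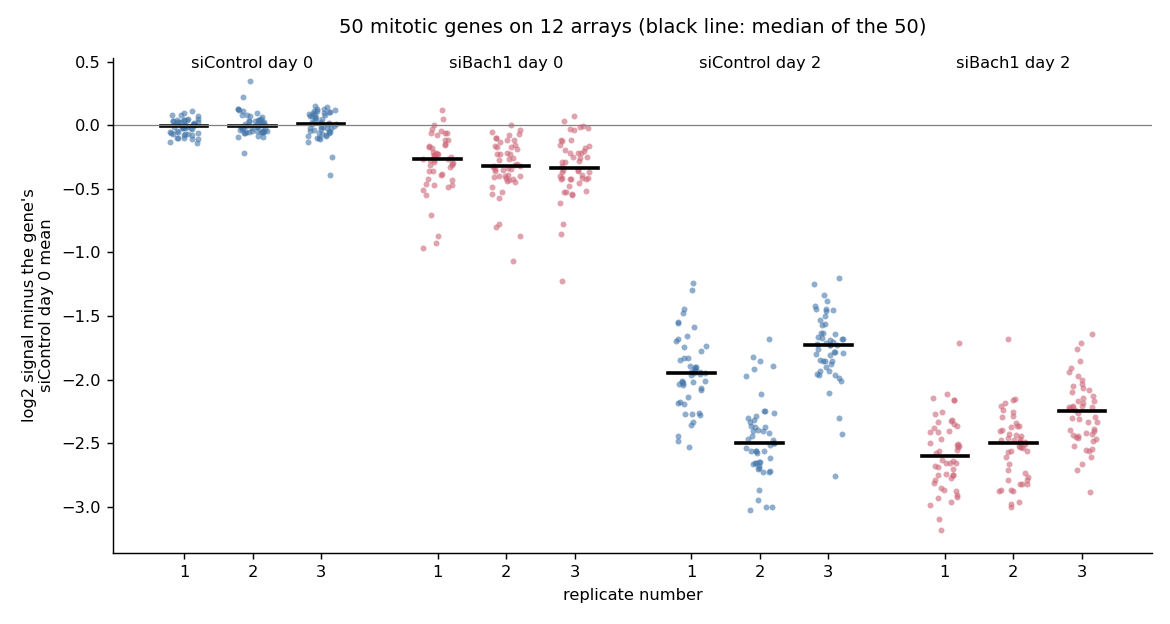
Level of each of the 50 genes (brightest probe, log2) minus its own siControl day 0 mean, on the 12 arrays, numbered by replicate within each condition (points, genes; black lines, medians). The siControl day 2 arrays have medians of -1.95, -2.50 and -1.73, so that their spread exceeds the distance between the siControl and siBach1 arrays at day 0.

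The median over all genes tested varied little, from -0.06 to 0.03 on the same day 2 arrays. The spread was not particular to the members. The further mitotic genes had medians of -1.83, -2.24 and -1.62 in siControl and -2.36, -2.34 and -2.07 in siBach1 cells. For the DNA replication genes they were -1.84, -2.34 and -1.74 in siControl and -2.27, -2.29 and -1.90 in siBach1 cells. The 8 muscle markers had medians of 4.78, 4.88 and 4.68 in siControl and 4.15, 4.08 and 3.87 in siBach1 cells. In both, the arrays ranked in the inverse order of the member medians, so that siControl replicate 2 was the highest for the markers. Whether the spread of the members between arrays is linked to that of the muscle markers was not tested. These markers were lower in silenced cells at day 2, with a median difference of -0.50 on the log2 scale (1.42-fold), of which 3 passed (Actc1, Mymk and Myog). Their part in the difference between the mitotic genes was not tested. Without siControl day 2 replicate 2, 57 member probes were lower at day 2 (median -0.62), where 5.76% of all tested probes were. At day 0 the same fit gave 23, where 8.83% of all tested probes were lower. Without siControl day 2 replicate 1, without siControl day 2 replicate 3 or without siBach1 day 2 replicate 1, 3 member probes were lower in each case. In these fits 3.8%, 3.67% and 2.91% of all tested probes were lower, so that the member counts were close to the background. Without siControl day 2 replicate 3 the median was -0.24. The median was below 0 in each of these fits. Within slide 1 it was -0.25 at day 0 and -0.32 at day 2, and within slide 2, with 1 array per condition, -0.32 and -0.53. The Pttg1 and Cenpa probes stayed under an adjusted p of 0.05 in all 12 fits without 1 array, with highest values of 0.0061, 0.049 and 0.035, and the other 8 passing probes rose above it in 3 to 11 of them.

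The change of the silencing effect between the days was tested as an interaction. For 1 of the 91 probes, Pttg1 A_55_P2110738, the difference between siBach1 and siControl cells was further below 0 at day 2 than at day 0 at an adjusted p under 0.05, where 2.2% of all tested probes were, and 0 member probes went the other way, where 2.39% did. The change was -1.07 on the log2 scale (95% interval -1.49 to -0.66, adjusted p = 0.015), from -0.03 at day 0 to -1.11 at day 2. On the other Pttg1 probe it was -0.64 (adjusted p = 0.14). An unadjusted p under 0.05 was reached by 4 member probes, all lower, of Pttg1, Hmmr and Kif2c, where 12.9% of all tested probes were lower. Over the 50 genes the median was -0.08, next to -0.07 over all genes, and without siControl day 2 replicate 3 it was 0.09. Nuf2 and Foxm1, which had passed only at day 0, changed by 0.52 and 0.47 (adjusted p = 0.31 and 0.33), so that a difference between days was not shown for them.

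Other genes of the pathway were compared side by side. Among 80 further mitotic genes, such as inner kinetochore, cohesin and spindle-associated genes, 78 were tested with 1 probe each, and 75 were lower at day 2 than at day 0 in siControl cells (median -1.90), where 30.1% of the 15642 genes were. At day 0, 14 of the 78 were lower in siBach1 than in siControl cells and 1 was higher (median -0.32), where 9.85% of all genes were lower and 10.1% higher. At day 2, 6 were lower and 0 higher (median -0.32), where 7.4% of all genes were lower and 6.38% higher, so that the number lower was close to the background. The smallest adjusted p at day 0 were those of Cenpp (-0.87, adjusted p = 0.0011), Stag1 (-0.63, adjusted p = 0.0011) and Cenpu (-0.97, adjusted p = 0.0033). At day 2 they were those of Cenpp (-0.79, adjusted p = 0.0035), Cks2 (-0.81, adjusted p = 0.0089) and the cohesin subunit Rad21 (-0.40, adjusted p = 0.014).

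Among 47 DNA replication genes, which act in S phase before mitosis, 46 were lower at day 2 than at day 0 in siControl cells (median -2.02). Of all 15642 genes tested, 30.1% were. At day 0, 14 were lower in siBach1 cells and 1, the G1 cyclin gene Ccne1, was higher by 0.82 (median of the list -0.43), next to the same 9.85% and 10.1% of all genes. At day 2, 1 was lower and 1 higher (median -0.19), both below the shares of all genes, 7.4% and 6.38%. Gins2, a subunit of the replicative helicase, led at day 0 with -1.29 (adjusted p = 0.00024), followed by the polymerase subunits Pole2 at -0.73 (adjusted p = 0.0015) and Pold3 at -0.52 (adjusted p = 0.0025). At day 2 the smallest adjusted p were those of Cdc45, another helicase component, at 0.61 (adjusted p = 0.027), of Gins2 at -0.57 (adjusted p = 0.029) and of Tyms at -0.48 (adjusted p = 0.059). The medians of the replication list and of the members were not tested against each other.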

How the data were processed

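RNA of C2C12 cells was labelled with Cy3 and hybridized to Agilent 8×60K mouse arrays. The deposited scanner files hold processed signal intensity per spot as the authors' Agilent Feature Extraction wrote it (background-subtracted, 1 colour; version 9.1 per the labels, 10.7.3.1 per the file headers), and the deposited table of all arrays holds log2 values that the authors had normalized to the 75th percentile. Control and outlier spots were removed, each array's 75th percentile was subtracted from the log2 signal intensity, and repeated spots were averaged. The authors' log2 values also had each probe's median over the arrays subtracted, which the levels given here do not. With that median taken off as well, values of probes with 1 spot differed from the authors' by at most 0.00449. Columns of fold changes and p-values in that table were not used. The 29664 of 56605 probes that the scanner called well above background throughout 1 condition or more were tested in 1 limma fit (version 3.58.1 in R 4.3.3) of the 4 conditions, with Benjamini-Hochberg adjustment over all tested probes and a threshold of 0.05. Fits were tested on simulated data. Summaries used Python 3.11.

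Members, further lists and tests were chosen with earlier results of these data known. Values on every array are given for members that passed in a silencing comparison or the interaction and, per role, for the largest and smallest fall; of each further list, the 3 genes with the smallest adjusted p in each silencing comparison are named with their log2 difference. Replicate numbers come from the labels. Deviations of same-numbered arrays from their condition means correlated in all 18 pairs (0.14 to 0.60 over tested probes, and -0.44 to 0.26 for different numbers). Replicates 1 and 2, on the same slide, also correlated across numbers (0.10 to 0.26), and every negative value involved replicate 3. For replicate 3, pairing and slide cannot be told apart. The numbers were taken to pair the samples in fits with the number as a block, given where they changed a count. The main fit did not use them. Alternatives were quantile normalization, the normexp background model (offset 50), the authors' values, no or a strict filter on dim probes, replicate or slide as a block, each slide alone, the arrays of each comparison alone, a robust trended prior, the methods' t-test, a 2-fold threshold, and each array left out. The number of arrays limits the precision. Array gene symbols were used; 81 of the 100 member probes had an accession in the RefSeq table and all 81 carried the same symbol.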

Additional observations from a re-analysis of the deposited data

Results flagged for a closer look

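The effect of the siRNA on Pttg1 (securin) differed between the 2 days on 1 of its 2 probes: the log2 difference between siBach1 and siControl cells at day 2 minus that at day 0 was -1.07 for A_55_P2110738 (limma interaction, adjusted p = 0.015), and all 3 siBach1 arrays lay below all 3 siControl arrays at day 2. It stayed under 0.05 in all 12 fits without 1 array (0.0094 to 0.046) and was above it with no filter on dim probes (0.087) and within slide 1 (0.077). The brighter probe gave -0.64 (adjusted p = 0.14).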

How the results depend on the processing

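The direction of the member medians was the same under every alternative for the 2 silencing and the 2 day comparisons; that of the interaction went from -0.08 to between -0.26 and 0.09 when 1 array was left out. Counts of lower member probes moved more. Percentages in brackets give the share of all probes in the same fit that were lower. They are given for the 2 silencing comparisons, by probe also where a list was counted by gene. At day 0 (7 probes) there were 13 with normexp (7.74%), 3 with no filter (2.55%) and 11 with the replicate block (11.3%). There were 11 with the slide block (11.3%) and 21 with the arrays of the comparison alone (6.96%). The methods' t-test gave 20 after adjustment (5.7%) and 44 before it (12.5%). A 2-fold threshold gave 1 (1.98%), and leaving out 1 array gave 3 to 23 (5.93% to 8.83%). At day 2 (11 probes) there were 2 with no filter (1.05%), 23 with the replicate block (11.6%) and 24 with the slide block (11.9%). There were 4 within slide 1 (4.12%) and 3 with the arrays of the comparison alone (3.25%). The methods' t-test gave 0 after adjustment (2.11%). A 2-fold threshold gave 1 (0.651%), and leaving out 1 array gave 3 to 57 (2.91% to 6.97%). For the interaction (1 probe) there were 0 with no filter, 0 within slide 1, 2 by the unadjusted t-test and 1 to 4 without 1 array. The Kif23 probe A_55_P2732276 passed as higher at day 2 in siControl cells, giving a count of 1, with normexp, the slide block, the arrays of the comparison alone, the unadjusted t-test and 3 of the 12 fits without 1 array (0 to 1). Medians at day 0 (-0.26) were -0.31 with quantile normalization, -0.32 with normexp, -0.32 within slide 2, -0.31 when the tested probes of each gene were averaged and -0.30 to -0.26 without 1 array. The siControl day median (-2.07) was -1.79 within slide 2, and the siBach1 one (-2.14) was -1.99 with quantile normalization and -1.95 within slide 2. The count of further mitotic genes lower at day 0 (14) was 7 with no filter (2.55%) and 0 with a 2-fold threshold (1.98%). That at day 2 (6) was 2 (1.05%) and 0 (0.651%). The gene higher at day 0 did not pass with a 2-fold threshold (0). At day 2, 1 was higher with quantile normalization, where 6.33% of all probes were higher. The count of DNA replication genes lower at day 0 (14) was 24 with normexp (7.74%), 6 with no filter (2.55%) and 1 with a 2-fold threshold (1.98%). That at day 2 (1) was 2 (7%), 0 (1.05%) and 0 (0.651%). The replication gene higher at day 0 was lost with a 2-fold threshold (0), and that at day 2 with normexp, no filter or a 2-fold threshold (0). The causes were not tested. The replicate block changed no other count by over 1.5 times.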
